A study of Mus musculus with 18 samples.

Results

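Sites with a RAD21 ChIP-seq peak in mouse B cells after 96 h of stimulation and none after 48 h, and the reverse, were taken from the lists of peaks. A gained late site had a peak in all 3 replicates of 96 h-stimulated B cells and in neither of 2 replicates of 48 h-stimulated B cells. A lost late site had a peak in both 48 h replicates and in no 96 h replicate. Peaks of the 5 lists were joined into 1 site when they shared at least 1 bp, which gave 9727 sites. Of these, 843 (8.67%) were gained late and 6 (0.0617%) were lost late. When every list was limited to its 1538 highest scores, the length of the shortest list, 137 of 3912 sites (3.5%) were gained late and 110 (2.81%) were lost late. Over all 9 replicates of the series, resting cells included, there were 15225 sites.

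Splenic B cells of C57BL/6 mice aged 8 to 10 weeks were purified on magnetic columns, and each replicate was pooled from 12 mice. They were used resting (0 h) or after 48 h or 96 h of culture. The stimulus was LPS (50 µg/ml), a component of bacterial membranes, together with IL-4 (2 ng/ml), the cytokine that directs switching to IgG1. The 96 h cells were also enriched for IgG1-positive cells by negative selection, a step that is not described for the 48 h cells. The length of culture and this selection therefore cannot be told apart. The lists hold binding sites and no expression values, so the cell type could not be checked against its marker genes, and the 9 input libraries were used here only through the authors' peak calls.

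Cohesin is a ring of SMC1, SMC3, the kleisin RAD21 and a STAG subunit that holds sister chromatids together and extrudes loops of chromatin. In interphase it accumulates where the zinc finger protein CTCF is bound, and pairs of such sites often form the base of a loop. In B cells, loops of this kind bring distant gene segments and enhancers of the immunoglobulin loci together.

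The sequences at the gained and lost sites show the motif that most RAD21 peaks contain. It was learned from 292 sites occupied in all 3 resting replicates, which were not used to choose the members, and reads NTNGNGCCCCCTNGTGGNNN, where N is a position without 1 prevailing base. These letters are those of the known CTCF motif. Both strands were searched within 100 bp of each site's centre. Among the 10 gained late sites with the highest median score rank at 96 h, 9 had a match. The sites of Mapkapk3 and Sp110 had peaks in all 3 resting replicates on chromosomes used for learning, so that their matches are not independent of it. For 5 of these, chosen to cover an intergenic site, a promoter and 3 introns, the matched 20 bases are in capitals within 60 bases of mm9, read 5′ to 3′ on the strand of the match. The site near Lass6 is at chr2:68622922-68622981 on the minus strand, that near Mapkapk3 at chr9:107193407-107193466 on the plus strand, that in Sp110 at chr1:87478326-87478385 on the minus strand, that in Fbxl18 at chr5:143639143-143639202 on the plus strand, and that in 4831426I19Rik at chr12:106190802-106190861 on the minus strand.
Lass6: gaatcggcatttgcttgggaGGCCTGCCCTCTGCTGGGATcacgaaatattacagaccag
Mapkapk3: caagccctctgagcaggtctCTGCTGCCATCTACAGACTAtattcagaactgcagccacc
Sp110: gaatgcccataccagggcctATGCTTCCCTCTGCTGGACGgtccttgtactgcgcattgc
Fbxl18: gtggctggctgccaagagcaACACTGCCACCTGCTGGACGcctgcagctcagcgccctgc
4831426I19Rik: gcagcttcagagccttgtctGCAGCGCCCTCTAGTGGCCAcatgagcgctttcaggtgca

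Of the 6 lost late sites, 3 had a match, and they are shown because the other 3 had none. They lie in Myst2 at chr11:95159618-95159677, near Agbl1 at chr7:84086596-84086655 and in Nek11 at chr9:105279462-105279521, all on the plus strand. The match in Myst2 scored 9.47 log2 odds, just above the threshold of 9.42, which 5% of windows 1 kb from the training sites pass. The site near Sykb (the gene now named Syk), at chr13:52807492-52807551 on the minus strand, was lost late only with lists of equal length.
Myst2: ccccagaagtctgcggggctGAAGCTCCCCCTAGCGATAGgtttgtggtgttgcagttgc
Agbl1: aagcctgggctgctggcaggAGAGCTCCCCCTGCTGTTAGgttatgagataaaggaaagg
Nek11: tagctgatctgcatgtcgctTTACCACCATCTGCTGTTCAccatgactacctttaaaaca
Sykb: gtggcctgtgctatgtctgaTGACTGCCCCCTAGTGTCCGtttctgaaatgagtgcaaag

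The lists differed in length. There were 1538 and 1563 peaks in 48 h replicates 1 and 3, and 2807, 4552 and 8579 peaks in 96 h replicates 1, 2 and 3. Every 96 h list was longer than both 48 h lists, and the 96 h lists also differed much more from each other than the 48 h lists did. The mean log2 number of peaks was higher by 1.63 at 96 h, with p = 0.2 in a two-sided exact permutation test over 10 arrangements (n = 2 and 3). The smallest p that this test can give over 10 arrangements is 0.1, so that it cannot pass a threshold of 0.05 for any measure compared between these replicates. The authors drew the same number of read positions from each set of aligned reads, but the lists give no reads per peak.

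48 h replicate 2 was set aside because it stands apart from the other lists. Its 5254 peaks had a mean width of 77.5 bp, against 172 to 218 bp in the 5 lists compared. The motif was found in 3.32% of its peaks on the chromosomes not used for learning, and tandem repeats of 20 or more bases lay at 61.8% of its peaks. In the 5 lists compared, the motif was found in 83.6% to 94.6% of peaks and a tandem repeat in 2.94% to 5.63%. With this replicate counted as a further 48 h list, 827 sites were gained late and 3 were lost late.

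The whole lists gave many more gained than lost sites. Gained late sites made up 8.67% of the 9727 sites, lost late sites 0.0617%, and 437 sites were in all 5 lists. Just outside the rule, 1972 sites had a peak in 2 of the 96 h replicates and no 48 h replicate, and 595 had a peak in all 3 of the 96 h replicates and 1 of the 48 h replicates. For the lost sites, 249 had a peak in 1 of the 48 h replicates and no 96 h replicate, and 50 had a peak in both 48 h replicates and 1 of the 96 h replicates. The length of the lists moved with these counts. Without the shortest 96 h list, that of replicate 1, 2320 sites were gained late, and without replicate 2, 1270 were. Without the longest list, that of 96 h replicate 3, 49 sites were lost late. Dropping 48 h replicate 1 or 48 h replicate 3 left 148 and 113 lost sites, and dropping 96 h replicate 1 left 11.

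With 1538 peaks in every list, the numbers of gained and lost sites came close to each other. Gained late sites were then 3.5% of the 3912 sites and lost late sites 2.81%, while 209 sites were in all 5 lists. The last peak kept and the first peak left out had the same score in each shortened list, 4.99 in 48 h replicate 3 and 9.44, 14.73 and 20.75 in 96 h replicates 1, 2 and 3. With 400 peaks in each list, 27 sites were gained and 35 lost, with 800 peaks 69 and 64, and with 1200 peaks 106 and 101. The rule asks for 3 lists in 1 direction and for 2 in the other. When 1 of the 96 h replicates was left out, so that 2 lists stood against 2, there were 235 to 254 gained and 152 to 171 lost sites, and in each of these 3 comparisons the gained sites outnumbered the lost. Without 48 h replicate 1 there were 220 gained and 613 lost sites, and without 48 h replicate 3 there were 213 and 572.

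**Figure D1:**
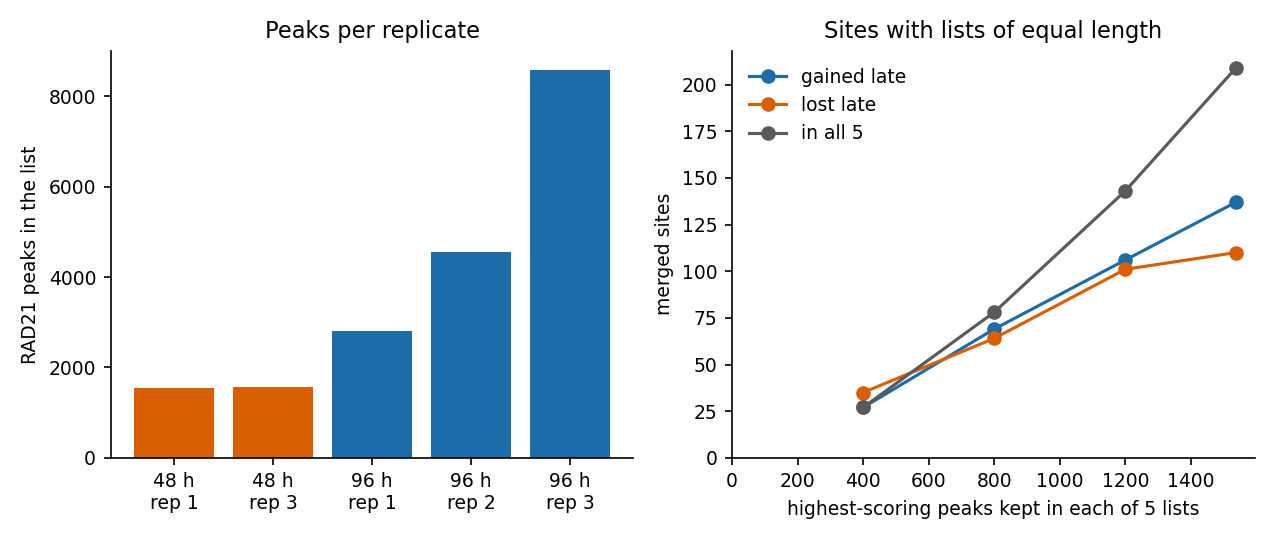
The left plot shows the number of RAD21 peaks in each of the 5 lists compared, 48 h in orange and 96 h in blue. The right plot shows the number of gained late sites, lost late sites and sites in all 5 lists against the number of highest-scoring peaks kept in each list, where 137 sites were gained and 110 lost at 1538 peaks.

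The sites missing at 48 h were mostly missing from the whole 48 h lists too, whereas the sites lost at equal length mostly still had a peak at 96 h, outside the 1538 highest scores. Of the 137 sites gained at equal length, 135 had no peak in either whole 48 h list, and the other 2 had a peak in 48 h replicate 3 only. Of the 110 lost sites, 6 had no peak in any whole 96 h list, 38 had a peak in 1, 50 in 2 and 16 in all 3. The peaks were found in 29, 59 and 98 of the 110 sites in 96 h replicates 1, 2 and 3, at a median score percentile of 23.5, 43.8 and 59.9 of the respective list. The whole 48 h lists are not much longer than the shortened ones, so these counts describe the lists and are not a comparison of the classes.

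The lists of 96 h cells were more alike than those of 48 h cells at equal length. Of the sites in either list of a pair, 25.9% were in both 48 h lists. Between the 3 pairs of 96 h lists the shared part was 31.2% to 35.0%, and between lists of different time points it was 23.1% to 28.0%. The pair of 48 h lists was thus within the range of the pairs that cross the time points.

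Many gained late sites had already been occupied in resting B cells. Of the 843 gained sites, 437 (51.8%, exact binomial 95% interval 48.4% to 55.3%) were occupied in 1 or more resting replicates, 239 in 2 or more and 56 in all 3. Such intervals cover counting error only. Among all 9727 sites, 35.6% had a resting peak, and among the 437 sites in all 5 lists 89.7% did. The rule asks for a peak in 3 lists, whereas 4454 of all sites had a peak in 1 of the 96 h lists only. A share above that of all sites was not tested apart from this difference. Peaks in 2 or more resting replicates were present at 28.4% of the gained sites and 17.4% of all sites. For all 3 resting replicates these shares were 6.64% and 5.46%. At equal length, 102 of 137 gained sites (74.5%, 66.3% to 81.5%) and 90 of 110 lost sites (81.8%, 73.3% to 88.5%) had a resting peak, against 59.4% of all sites and 94.3% of the sites in all 5 lists. The intervals of the gained and lost sites overlap. At equal length, a peak in all 3 resting replicates was present at 10.9% of the gained sites, near the 12.3% of all sites. It was present at 19.1% of the lost sites and 51.7% of the sites in all 5 lists.

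**Figure D2:**
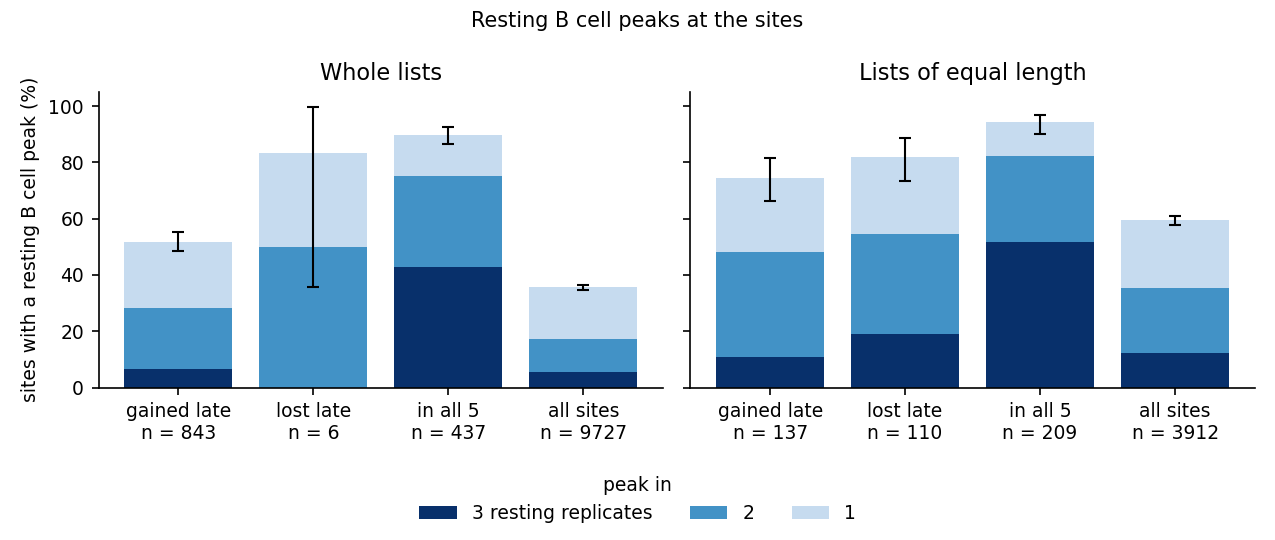
Bars give the percentage of sites with a RAD21 peak in 1, 2 or 3 resting replicates, for gained late sites, lost late sites, sites in all 5 lists and all sites, with whole lists on the left and lists of equal length on the right. Error bars are exact binomial 95% intervals of the total, and the total rises from 51.8% to 74.5% for gained late sites when the lists have equal length.

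The pooled lists, which the authors called from the merged reads of a time point, held a peak at some of the sites that both 48 h replicates lacked. The pooled 48 h list, in which replicate 2 is merged, had a peak at 285 of 843 gained sites (33.8%). This is near the 31.9% of all 9727 sites. At equal length it had a peak at 41.6% of the 137 gained sites, beside 62.5% of all 3912 sites. The pooled 96 h list had a peak at all 843 gained sites and at 4 of the 6 lost sites, beside 95.1% of all sites. Of the gained sites, 235 (27.9%) had no peak in any resting replicate, in 48 h replicate 2 or in the pooled lists of 0 h and 48 h. The share of all sites for this condition was not computed, so the 235 are not set against a background. For the resting replicates alone, 48.2% of gained sites and 64.4% of all sites had no peak. The 4 of the 235 sites with the highest median score rank were chosen after their values were seen. They lay nearest to Mab21l3, Lep, which encodes the hormone leptin, Blcap and Gpr31c. The site near Mab21l3 (chr3:101616571-101616807) scored 19.3, 26.89 and 22.83 in 96 h replicates 1, 2 and 3. The site near Lep (chr6:28974182-28974471) scored 19.27, 21.89 and 40.04 and had no motif match, whereas the other 3 had one.

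Gained late sites did not hold the highest scores of the 96 h lists. The score is that of the authors' peak caller, with no named statistic, and was used only as a rank within a list. The gained sites had a median percentile of 50.4, 61.9 and 74.1 in the whole lists of 96 h replicates 1, 2 and 3, while the sites in all 5 lists had 77.8, 85.4 and 93.7. The 6 lost sites had medians of 37.6 and 53.9 in 48 h replicates 1 and 3, against 72.3 and 71.0 for the sites in all 5 lists. The ranks of gained sites were higher in the longer 96 h lists.

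**Figure D3:**
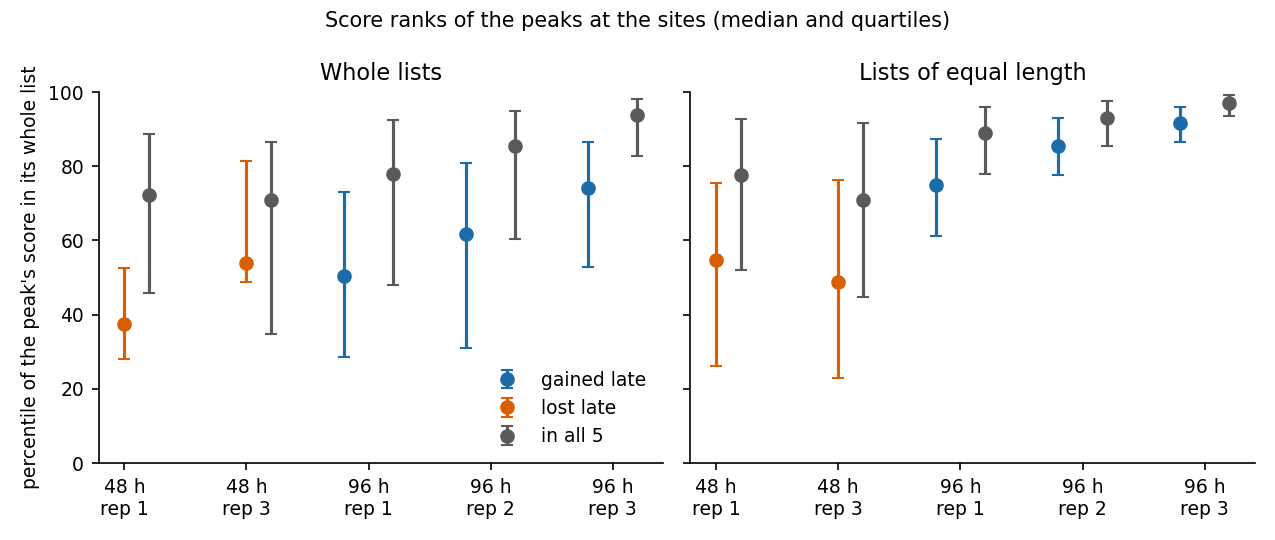
Points give the median percentile of the peak score within its whole list and bars the quartiles, for gained late sites, lost late sites and sites in all 5 lists, per replicate. In the whole lists the gained sites had medians of 50.4, 61.9 and 74.1 in the 96 h replicates, below the sites in all 5 lists.

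The 10 gained sites with the highest median percentile included introns, promoters and intergenic positions. The site with the highest rank lay 11351 bp downstream of the start of Zdhhc19, a protein palmitoyltransferase, within 3 kb past the end of a gene (chr16:32507549-32507854). It scored 29.9, 17.39 and 50.17 in 96 h replicates 1, 2 and 3, and 12.59 and 22.32 in resting replicates 1 and 3. It was thus in the top 1% of the lists of 96 h replicates 1 and 3. No 48 h replicate had a peak there, but the pooled 48 h list did. The site of Ddah2, an enzyme that degrades methylated arginine, was centred 23 bp before a transcription start (chr17:35196591-35196884) and scored 25.96, 21.47 and 40.89. It was the only one of the 10 without a motif match, and it too had peaks in 2 resting replicates.

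The other sites of this group were near or in genes of various functions. The site 76520 bp upstream of Lass6, a ceramide synthase now named Cers6, scored 24.45, 22.16 and 39.63 (chr2:68622825-68623131). The site 1199 bp upstream of Mapkapk3, a kinase activated by p38, scored 27.42, 27.86 and 38.03 (chr9:107193264-107193549). Sp110 encodes an interferon-induced nuclear body protein, and the site in its intron 9 of 11 scored 24.58, 24.58 and 36.85 (chr1:87478214-87478503). The sites of Mapkapk3 and Sp110 had a peak in all 3 resting replicates, as had the sites in intron 10 of 4831426I19Rik and 44850 bp upstream of Gm4799. The site in intron 4 of Fbxl18, an F-box protein, scored 15.96, 32.79 and 46.61. The last 2 of the 10, in 2310043J07Rik and near Tpra1, had a peak in 1 resting replicate each. They were at percentiles 28.6 and 71.5 in 96 h replicate 1 and above percentile 97 in the other 96 h lists. Every one of the 10 thus had a resting peak, but they were chosen for their high ranks at 96 h. A resting peak was present at 51.8% of all gained sites and at 74.5% of those gained at equal length. The share among other sites of similar rank was not computed, so the 10 are not set against a background. The pooled 48 h list also had a peak at each of the 10 except the sites in Fbxl18, 2310043J07Rik and Sp110. This was likewise not compared with other sites of similar rank. 48 h replicate 2 had no peak at any of the 10.

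Of the 6 lost late sites, 3 had a motif match and 3 had none. The 3 matches were on chromosomes used for learning, and on the other chromosomes 0 of 3 lost sites had a match, which is too few to limit the share. The sites in intron 4 of Myst2 (now Kat7, a histone acetyltransferase), near Agbl1, a carboxypeptidase that shortens glutamate side chains, and in intron 2 of the kinase Nek11 had a motif match and no peak in 48 h replicate 2. Their scores in 48 h replicates 1 and 3 were 8.86 and 9.68, 7.69 and 9.4, and 7.69 and 8.38. They had a peak in 1, 1 and 0 resting replicates. The other 3 sites had no motif match and a peak in all 3 of the 48 h replicates and in 2 resting replicates. The site 553946 bp from the start of Jmjd1c, of the jumonji family of demethylases, scored 9.8 and 9.08 in 48 h replicates 1 and 3 and 56.74 in 48 h replicate 2 (chr10:66004842-66005019). The site in intron 20 of Pcca, a subunit of propionyl-CoA carboxylase, scored 8, 13.79 and 34.56 in the same order (chr14:123206561-123206752). The site in intron 1 of the potassium channel gene Kcnd2 scored 11.45, 19.71 and 39.71 (chr6:21621446-21621692). Tandem repeats of 20 and 30 bases lay at the sites near Jmjd1c and in Pcca. These 3 sites are the lost sites that remain when 48 h replicate 2 is counted.

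The same division was present among the 110 sites lost at equal length. 48 h replicate 2 had a peak at 16 of them, of which 4 had the motif and 7 a tandem repeat. Of the other 94, 92 (97.9%) had the motif and 2 a tandem repeat. Of the 134 gained sites without a peak in that replicate, 129 (96.3%) had the motif. Among all sites at this length, 3410 of 3616 (94.3%) without such a peak had the motif. With such a peak, 130 of 296 (43.9%) had it. The division is thus not particular to the lost sites. These counts cover all chromosomes, those used for learning included. The 6 lost sites with the highest rank at 48 h lay nearest to Stk17b, a serine/threonine kinase of lymphocytes, Srek1, Stfa3, Sykb, Gm9008 and 5031425E22Rik. All 6 were intergenic. The sites near Srek1 and Gm9008 had no motif, tandem repeats of 36 and 44 bases and a peak in 48 h replicate 2. The site near Stk17b (chr1:53772360-53772637) scored 18.38 and 15.23 in 48 h replicates 1 and 3 and 13.73 in 96 h replicate 3, with no peak in the other 96 h lists. Syk is a kinase that is recruited to the activated B cell receptor. The site 115348 bp past its start (chr13:52807428-52807712) scored 13.98 and 14.96 at 48 h, and 9.32 and 18.8 in 96 h replicates 1 and 3, and had no resting replicate peak.

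Peaks at 96 h lay less often between genes than peaks at 48 h. Between genes, defined as outside genes and more than 3 kb from them, were 51.6% and 50.2% of the peaks of 48 h replicates 1 and 3, and 46.6%, 46.1% and 45.5% of those of 96 h replicates 1, 2 and 3. The groups did not overlap, and the means were 50.9% ± 0.991 and 46.1% ± 0.546 (SD, n = 2 and 3), with an exact permutation p of 0.1 (adjusted over 9 features 0.1125). The 3 kb past gene ends held 7.93% and 7.36% of 48 h peaks and 9.65%, 9.82% and 9.76% of 96 h peaks. Promoters within 3 kb held 9.43% and 9.79% against 10.0%, 10.4% and 10.4%. With a stricter minimum score, this mean difference of 0.65 percentage points fell to 0.029 (exact permutation p = 0.9). Coding exons, 3′ UTRs and introns also held a larger share in each 96 h replicate than in either 48 h replicate, each with an exact permutation p of 0.1. For 5′ UTRs the groups overlapped, at 0.452% and 0.703% on average (exact permutation p = 0.3).

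At equal length the differences were of similar size. Intergenic shares were 50.9% ± 0.965 at 48 h and 46.6% ± 1.59 at 96 h, and shares past gene ends 7.67% ± 0.368 and 9.80% ± 0.479, with an exact permutation p of 0.1 for each (adjusted 0.225). For the promoter within 3 kb the difference was 0.73 percentage points, with an exact permutation p of 0.2. The resting lists, which are not part of the comparison, had intergenic shares of 44.5% to 46.6% and shares past gene ends of 9.25% to 9.62% in their whole length, closer to the 96 h than to the 48 h replicates. Their promoter shares of 12.6% to 13.3% were above both.

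**Figure D4:**
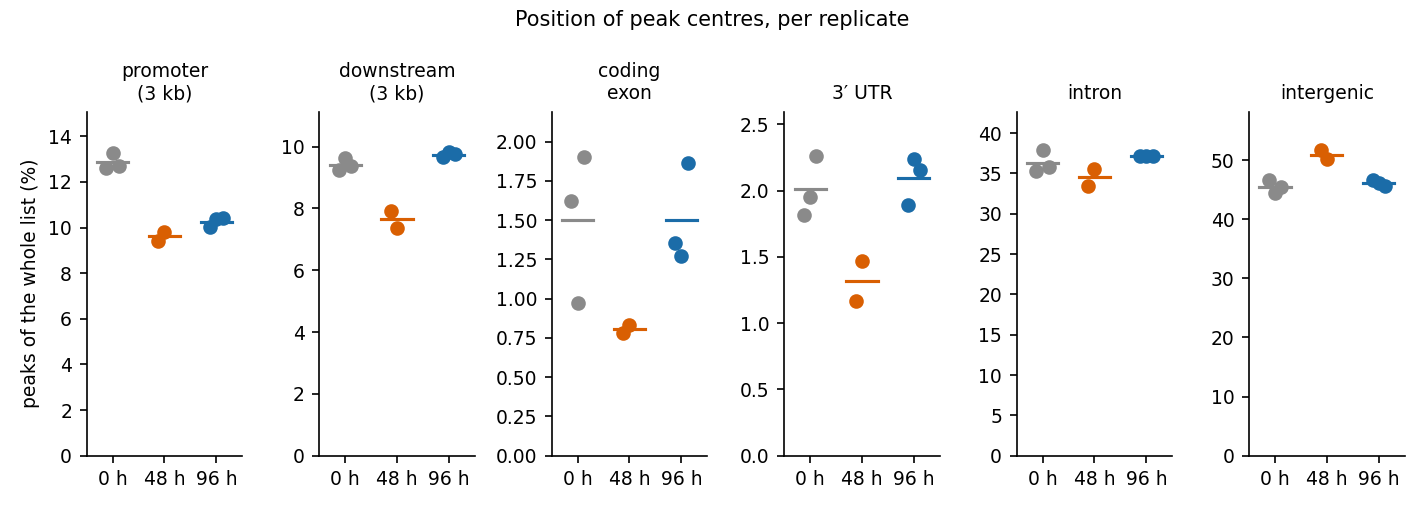
Each point is the percentage of the peaks of 1 whole list whose centre lies in the feature, at 0 h in grey, 48 h in orange without replicate 2, and 96 h in blue, and lines are means. The intergenic share was 50.9% on average at 48 h and 46.1% at 96 h, and the 48 h and 96 h replicates do not overlap in the 6 features plotted.

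The gained and lost sites themselves showed the same order. At equal length, 57 of 137 gained sites (41.6%, 33.3% to 50.3%) and 66 of 110 lost sites (60.0%, 50.2% to 69.2%) were intergenic, beside 47.7% of all sites. Introns held 40.9% of gained and 25.5% of lost sites, beside 36.7% of all. Promoters within 3 kb held 17 gained sites (12.4%, 7.40% to 19.1%) and 7 lost sites (6.36%, 2.60% to 12.7%). Both intervals include the 9.41% of all sites. More than 100 kb from any start were 5 gained sites (3.65%, 1.20% to 8.31%) and 15 lost sites (13.6%, 7.84% to 21.5%), beside 9.25% of all sites. Since the same lists gave the members and the shares per replicate, these values describe the sites and were not tested. Among the 843 gained sites of the whole lists, 44.5% were intergenic, 37.2% intronic, 11.6% within 3 kb past a gene end and 9.61% in promoters. These shares were near those of all 9727 sites, at 45.8%, 37.3%, 9.58% and 10.2%. The median distance to the nearest start was 17334 bp for gained sites and 18185 bp for all sites.

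Most gained sites had the motif. On the 11 chromosomes not used for learning, 350 of 362 gained sites (96.7%, 94.3% to 98.3%) had a match, against 90.4% of all sites, 90.5% of the sites in all 5 lists and 7.46% of windows 1 kb from the gained sites. The gained sites are in 3 lists by the rule, whereas all sites include many that are in 1 list only. At equal length the shares were 96.6% of 58 gained sites (88.1% to 99.6%) and 81.3% of 48 lost sites (67.4% to 91.1%). These intervals overlap. Beside them, 88.4% of all sites and 95.7% of the sites in all 5 lists had a match. The peaks of 48 h replicates 1 and 3 had the motif in 89.1% and 83.6% of cases, and those of 96 h replicates 1, 2 and 3 in 91.2%, 94.6% and 92.0%. The groups did not overlap, with an exact permutation p of 0.1 (adjusted over 3 sequence measures 0.3). Matched motifs were of similar strength, with a median of 18.7 log2 odds at gained sites and 18.2 at all sites. Tandem repeats of at least 20 bases were present at 17 of 843 gained sites (2.02%) and at 4.10% of all sites.

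The base composition of the sites differed with the class. GC content of the 201 bases at each site was added after the lists had been seen. At equal length it was 53.7% ± 6.45 (SD over 137 sites) at gained sites, 47.2% ± 7.37 (SD over 110 sites) at lost sites, 52.0% ± 6.22 at the 209 sites in all 5 lists and 49.9% ± 6.94 at all sites. The order was the same among intergenic sites alone (52.7% gained, 46.9% lost), among sites with the motif (53.5% and 47.0%) and in windows 1 kb away (48.2% and 44.1%). It was also the same with 400 peaks in each list (57.8% and 45.9%). Per replicate, the mean GC content of the 1538 highest-scoring peaks was 49.2% and 49.1% in 48 h replicates 1 and 3 and 51.2%, 51.2% and 51.5% in 96 h replicates 1, 2 and 3. This difference of 2.16 percentage points exceeded the SD within each group (0.0400 and 0.162), with an exact permutation p of 0.1 (n = 2 and 3, adjusted over 3 sequence measures 0.15). Over the whole lists the difference was 0.94 percentage points (exact permutation p = 0.2), and 96 h replicate 3 had 49.5%. Whether base composition also differed between the sequenced libraries was not tested, since the lists hold no reads.

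**Figure D5:**
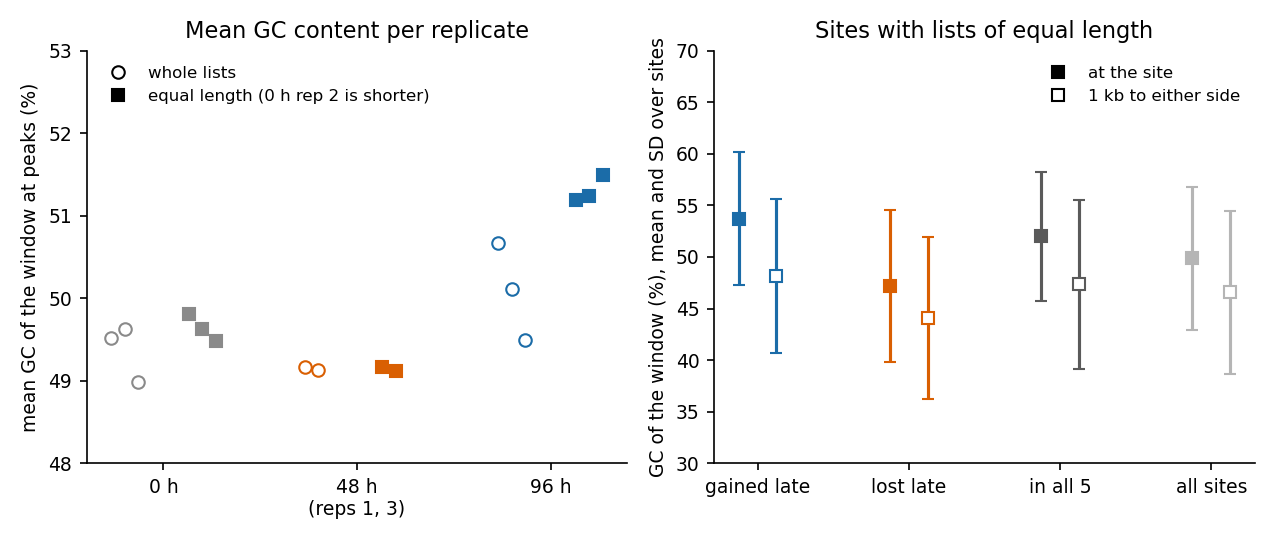
The left plot gives the mean GC content of the 201 bases at the peaks of each replicate, with whole lists as open circles and lists of equal length as squares, on an axis that starts at 48%. The right plot gives the mean and SD over sites at equal length, at the site and in windows 1 kb to either side, with 53.7% at gained and 47.2% at lost late sites.

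The gained late sites were spread over many genes. The 843 sites had 806 different nearest protein-coding genes, 36 of them nearest to at least 2 gained sites, and 355 sites lay inside a gene. These counts were not made over all 9727 sites, so they describe the gained sites without a background. Of the gained sites, 76 (9.02%) had another gained site within 50 kb, and 719 of all 9727 sites (7.39%) had a gained site within that distance. Dad1, which encodes a subunit of the oligosaccharyltransferase and adjoins the T cell receptor alpha locus, was the only gene nearest to 3. They lay 14701, 25714 and 193926 bp from its start, the nearest in its intron 2. The farthest was within the span of the T cell receptor alpha and delta segments (chr14:54679544-54679781), scored 10.19, 7.53 and 20.12 in 96 h replicates 1, 2 and 3, and had no resting replicate peak.

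Genes of B cell function were counted in 10 lists, with T cell and myeloid markers as 2 further lists. The share of a list's sites that was gained late is to be read against the 8.67% of all sites. No list held a lost late site of the whole lists. Of 40 sites nearest to B cell transcription factors, 2 were gained, both near Ets1. Of 34 sites nearest to B cell receptor signalling genes, 4 were gained, 2 near Plcg2 and 2 near Nfatc1. Homing and adhesion genes had 4 of 32, and cell cycle genes 3 of 18. LPS receptor and NF-kB genes had 1 of 28, plasma cell and secretion genes 1 of 13, and genes of MHC class II and costimulation 1 of 8. Class switch and DNA repair genes had 0 of 9, as had IL-4 receptor and target genes, which allows a share of up to 33.3%. Cohesin and CTCF genes had 0 of 7, which allows a share of up to 42.9%. T cell markers had 1 of 7, near Cd5, and myeloid markers 0 of 4, which allows up to 75%. These limits for a count of 0 are 3 divided by the number of sites. That is a rough rule at such small numbers and not an exact binomial interval. The counts are too small to set the lists apart from the background.

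Ets1 is a transcription factor that restrains plasma cell formation. Its gained sites lay 46126 bp upstream and 564318 bp downstream of the start, and the second scored 8, 25.29 and 28.64 in 96 h replicates 1, 2 and 3. Zbtb20, a factor of plasma cells, had a gained site in intron 9 of 14 that scored 11.89, 7.53 and 16.22 and had no resting replicate peak. Plcg2, the phospholipase activated by the B cell receptor, had a site 26889 bp upstream that scored 5.77, 21.11 and 23.27 and a site in intron 2 of 32 that scored 7.95, 23.27 and 16.32. The pooled 48 h list had a peak at the first of these and not at the second. Cd180, a receptor related to the Toll-like receptors, had a site 48524 bp upstream that scored 10.75, 14.73 and 7.63.

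Among cell cycle genes, the gained sites belonged to E2f2, a transcription factor, Cdkn1a, the inhibitor p21, and Ccnd3, cyclin D3. The E2f2 site, 12122 bp upstream, scored 9.44, 33.46 and 24.82 and was also gained at equal length. The Cdkn1a site, 1823 bp past the start, scored 9.44, 20.86 and 23.06. The Ccnd3 site in intron 1 scored 6.95, 14.35 and 23.71 and had a peak in all 3 resting replicates. Among homing genes, Selplg encodes the ligand of P-selectin and had 2 gained sites. The site 14427 bp upstream, in an intron of Coro1c, scored 17.53, 21.83 and 46.73 and was gained at equal length too. Ccr9 and Itgb7, a chemokine receptor and an integrin chain of gut homing, had 1 gained site each. H2-DMa, which helps to load peptides on MHC class II, had a site 234 bp past its start that scored 8.86, 12.28 and 26.03.

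At equal length, 3 lost sites had a nearest gene in these lists, and they are named because they are few. They were near Bcl6, the repressor of germinal centre B cells, Mef2c, a transcription factor, and Sykb. The Bcl6 site, in the gene 6373 bp past its start (chr16:23982440-23982689), scored 9.86 and 13.79 in 48 h replicates 1 and 3, had no peak in 96 h replicate 1, and scored 13.73 and 18.04 in 96 h replicates 2 and 3. It therefore had a peak in 4 of the 5 whole lists. The Mef2c site, 428336 bp upstream, scored 8 and 5.86 at 48 h and 17.27 in 96 h replicate 3, and had a peak in all 3 resting replicates.

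Pax5, Prdm1 and Zfp386, at which no site was gained or lost late, had peaks in single 96 h replicates. Pax5 encodes the factor that maintains B cell identity, and Prdm1 encodes Blimp-1, which drives plasma cells. Of 3 sites in Pax5, that in intron 8 (chr4:44577536-44577754) scored 14.43 in 96 h replicate 3, and 1 in intron 5 scored 8.27 in the same replicate. The other site in intron 5 scored 8 in 96 h replicate 2 and had a peak in all 3 resting replicates. All 3 had a motif match. The site at the start of Prdm1 scored 5.95 in 96 h replicate 3, at percentile 3.33 of that list, and the site in intron 1 of Zfp386 scored 9.08 in that list. Each site had a peak in 1 of the 3 replicates, and at 4 of the 5 sites that replicate had the longest list. The replicate lists therefore do not separate the time points at these sites. The pooled 96 h list had a peak at all of them. In the pooled 48 h list, only the site in intron 5 of Pax5 that scored 8 had a peak. The pooled 0 h list had a peak at each site except that in intron 8 of Pax5.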

How the data were processed

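RAD21 ChIP-seq peaks of resting, 48 h-stimulated and 96 h-stimulated B cells were analysed. Per the labels and the study's methods, the authors aligned reads to mm9 with Bowtie 2, sampled equally many unique positions from every set of alignments, and used MACS 2 with input as control for peak calling. The deposited lists hold positions and a peak score, whose statistic is not named and which was used here for ranks only. There were 9 lists of replicates and 3 of pooled reads. Depth per peak is unknown, so that intervals are exact binomial 95% intervals of counts of sites.

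The software was pysam 0.24.0, scipy 1.17.1, numpy 2.4.6 and matplotlib 3.10.9 under Python 3.11.15. Peaks sharing at least 1 bp were merged. Sites were assigned by their centre to protein-coding transcripts of GENCODE M1 on mm9 (NCBIM37), and the nearest gene was that with the nearest start. Features may overlap, except that intergenic means none. Gene symbols are those of GENCODE M1, matched to current names through RefSeq synonyms. The motif of 20 bases was learned on odd-numbered autosomes, and shares of peaks and sites with it were measured on the 11 other chromosomes. Motif matches at named sites, at sites divided by 48 h replicate 2 and in the GC comparison cover all chromosomes. Replicates were compared by exact permutation tests, with Benjamini-Hochberg adjustment, at a threshold of 0.05.

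The sites named are the 10 gained sites with the highest median score percentile, all lost sites, the 6 highest of each class at equal length, all sites at Pax5, Prdm1 and Zfp386, up to 4 gained or lost sites per gene list, and genes with 3 or more gained sites. The members and lists were chosen with earlier results of these data known. Alternatives were lists of equal length, a stricter minimum score, overlap of 50% of both peaks, merging within 500 bp, 48 h replicate 2 counted, other definitions of promoter and motif, a replicate block and each replicate left out. Leaving out replicates at equal length, other list lengths, GC content and distances between sites were added after seeing the data. The scripts were tested on simulated data. Replicate numbers were not used to pair the lists, except in the replicate block. At the immunoglobulin heavy chain segments, peaks were not analysed here.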

Additional observations from a re-analysis of the deposited data

Results flagged for a closer look

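The list of 48 h replicate 2, which was set aside from the main comparisons, had a peak at 16 of the 843 gained late sites (1.90%), beside 4.30% of all 9727 sites. It is listed because 16 exceeds the 3 counts that a count of 0 allows. The share at the gained sites is below that of all sites, so the listing marks no excess there. Of the 16 gained sites, 11 had the motif and 4 a tandem repeat of at least 20 bases. Of all sites with a peak in that list, 39.7% had the motif and 38.5% a tandem repeat. 48 h replicate 2 also had a peak at 16 of the 110 sites lost late at equal length (14.5%), beside 7.57% of all 3912 sites at that length. Of these 16, 4 had the motif and 7 a tandem repeat, beside 43.9% and 32.1% of all such sites with a peak there. At sites in all 5 lists it had 69 of 437, of which 51 had the motif.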

How the results depend on the processing

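No single result changed its sign, but the order of gained and lost sites at equal length (137 and 110) turned with 400 peaks per list and without either 48 h replicate. The number of gained late sites was 137 at equal length and 912 to 2320 without 1 replicate, where 2320 and 1270 were reached without 96 h replicates 1 and 2. The number of lost late sites was 110 at equal length, 3 with 48 h replicate 2 counted and 8 to 148 without 1 replicate. The gained sites with a resting peak were 74.5% at equal length, 63.8% with a stricter minimum score of 9.08 in every list, and 40.1% to 58.6% without 1 replicate. The motif was at 71.0% of gained sites with the stricter threshold that 1% of windows pass. At equal length, leaving out 1 replicate gave 213 to 254 gained and 152 to 613 lost sites, where 613 and 572 were reached without 48 h replicates 1 and 3, since 1 list then stood for the 48 h cells. Lists of 400 and 800 peaks gave 27 and 69 gained and 35 and 64 lost sites. Over all results, 60 of 88 values stayed on their side of the threshold or within their spread. These include all 8 values for peaks per replicate, all 11 for promoter share and all 10 for motif share of peaks. The permutation tests of these measures could not pass the threshold in any setting, so their side was fixed in advance. The promoter difference was counted as staying although it fell from 0.65 to 0.029 percentage points with the stricter minimum score. For these measures the tally says nothing about stability. In a replicate block of numbers 1 and 3, the log2 difference in peaks was 1.66, the difference in promoter share 0.60 and that in motif share 5.25 percentage points, with an exact permutation p of 0.5 each, the smallest that pairs of 2 can give. Same-numbered lists shared 24.4% and 15.5% of their sites, within the 15.5% to 24.4% of all pairs across time points, and the numbers mark no common animals. Whether the gained sites lacked cohesin at 48 h or fell below the limit of peak calling cannot be told apart from the peak lists.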
